A study of Mus musculus with 6 samples.

Results

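The 10 genes described here encode digestive enzymes of the exocrine pancreas: the trypsinogens Prss2, Try4 and Try5, the chymotrypsinogen Ctrb1, the elastases Cela1, Cela2a and Cela3b, the procarboxypeptidases Cpa1 and Cpb1, and the pancreatic lipase Pnlip. They were matched by symbol in the feature lists of all 6 libraries, and all 10 were found among 32285 features. Their level was measured in acinar cells, and in every other cell class of the same tumour, as a gauge of free RNA and of residual normal pancreas. Free RNA here means RNA released from broken cells that enters droplets together with other cells. The tumours came from KPC mice, whose alleles include p53LSL.R172H/+ and Pdx1-Cretg/+, in which a Cre recombinase driven by the Pdx1 promoter acts in pancreatic epithelium. All 6 mice shared this genotype and carried a tumour of 4 to 7 mm by ultrasound. Vehicle (corn oil and water) was given to 3 mice. The other 3 received trametinib, a MEK inhibitor, at 1 mg/kg by mouth with hydroxychloroquine, which blocks lysosomal degradation, at 40 mg/kg by mouth. Tumours were taken 24 h later and dissociated with an enzyme kit, and each mouse gave 1 droplet library. The age and sex of the mice are not given in the sources used here.

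Acinar cells make and store digestive enzymes in zymogen granules and secrete them into the pancreatic duct. Most of these enzymes are inactive precursors, which trypsin activates in the gut. Their genes are among the most highly transcribed of any cell type and are driven by the PTF1 complex, in which the acinar factors Ptf1a and Rbpjl bind a bipartite site. In pancreatic carcinogenesis acinar cells lose this programme and take on ductal features, so acinar cells in a tumour sample are usually read as normal or inflamed tissue next to the carcinoma.

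The 250 bases before the transcription start are shown for 5 members, from RefSeq on GRCm38.p6: Ctrb1 as the most abundant member, Prss2 as the most abundant trypsinogen, Cela1 as the member whose pattern departed from the rest, and Cela2a and Cela3b as its sister elastases. Each reads 5′ to 3′ on the strand of the gene. Capitals mark CANNTG followed, at most 20 bases further on, by TTTCCC on the same strand, a simplified form of the bipartite PTF1 site.
Ctrb1, chr8:111691011-111691260, minus strand: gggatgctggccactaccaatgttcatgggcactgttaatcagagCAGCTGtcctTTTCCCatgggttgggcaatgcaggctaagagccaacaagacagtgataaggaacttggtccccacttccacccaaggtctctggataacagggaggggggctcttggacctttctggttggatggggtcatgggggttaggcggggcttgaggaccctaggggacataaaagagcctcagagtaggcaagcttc
Prss2, chr6:41521526-41521775, plus strand: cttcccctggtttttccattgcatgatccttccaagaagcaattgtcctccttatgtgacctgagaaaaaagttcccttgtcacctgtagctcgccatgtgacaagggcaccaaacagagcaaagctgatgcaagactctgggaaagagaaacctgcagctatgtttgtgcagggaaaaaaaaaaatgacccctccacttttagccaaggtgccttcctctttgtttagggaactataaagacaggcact
Cela1, chr15:100687921-100688170, minus strand: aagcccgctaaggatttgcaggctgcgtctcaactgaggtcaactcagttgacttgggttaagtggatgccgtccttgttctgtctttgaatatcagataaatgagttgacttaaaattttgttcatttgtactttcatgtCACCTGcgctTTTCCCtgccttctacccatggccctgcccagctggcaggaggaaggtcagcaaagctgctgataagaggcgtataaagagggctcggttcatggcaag
Cela2a, chr4:141826006-141826255, minus strand: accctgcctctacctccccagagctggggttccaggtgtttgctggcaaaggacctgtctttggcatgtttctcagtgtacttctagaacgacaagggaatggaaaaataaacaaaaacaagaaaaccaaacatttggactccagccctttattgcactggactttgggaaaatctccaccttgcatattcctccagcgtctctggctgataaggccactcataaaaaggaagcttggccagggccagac
Cela3b, chr4:137430521-137430770, minus strand: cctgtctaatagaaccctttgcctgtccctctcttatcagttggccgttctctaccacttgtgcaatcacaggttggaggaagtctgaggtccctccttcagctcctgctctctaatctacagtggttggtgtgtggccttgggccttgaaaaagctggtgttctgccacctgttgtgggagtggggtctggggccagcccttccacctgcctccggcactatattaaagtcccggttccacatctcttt

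Promoter entries were found for 9 members, all but Try5. The spaced pair was present in 2 of the 9, Ctrb1 and Cela1, with 4 bases between its motifs in both. It lay 189 to 205 bases before the start of Ctrb1 and 93 to 109 bases before that of Cela1. Over 32851 RefSeq promoters of the same length, 2.03% held the pair on either strand. CANNTG alone was present in 8 of the 9 and in 66.2% of all promoters, and TTTCCC alone in 5 of the 9 and in 21.9%. Ctrb1 and Cela1 both carried the pair, although their levels across cells, given further on, followed different patterns. These matches describe letters in a fixed window and locate no bound factor.

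Gene coordinates are those of GENCODE M21 on mm10. Prss2 (ENSMUSG00000057163) spans chr6:41521787-41525079, and Try4 (chr6:41302269-41305532) and Try5 (chr6:41311233-41316841) lie in the same cluster of trypsinogen genes. Cpa1 lies elsewhere on that chromosome (chr6:30639218-30645363). Ctrb1 spans chr8:111686519-111691010, Cela1 chr15:100674421-100687921, Cela2a chr4:141814962-141826160 and Cela3b chr4:137420999-137430540. Cpb1 spans chr3:20248264-20275733 and Pnlip chr19:58652498-58681788. The RefSeq starts used for the promoters differ in part from these GENCODE coordinates. The promoter window of Cela2a, from 141826006, reaches inside its GENCODE span, as do those of Cela3b and Cela1 by fewer bases. The transcripts of Try4 and Try5 were 97.1% identical, and 45.9% of the stretches of 50 bases in Try5 occurred in Try4, so their counts may be split between the copies and are uncertain. Prss2 was 89.1% identical to Try4 and 87.9% to Try5, with 4.65% and 4.12% of such stretches shared.

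The libraries held between 22996012 and 126645602 UMIs (unique molecular identifiers, each counting 1 captured transcript). Of 44819 barcodes, 37018 were kept as cells. The median kept cell held more UMIs in treated mice (8449 to 11175.5) than in vehicle mice (2991 to 4719). Cells were clustered on variable genes, which could include the members, and clusters were named from marker genes that included none of the 10. Of the kept cells, 1947 (5.26%) stayed unnamed. A further 1944 cells led by Nnat and Cdkn2a, nearly all from treated 1 and treated 2, were kept as a group of their own. Some libraries stood apart. Only 25.7% to 25.9% of the barcodes of vehicle 1 began with 7 bases found in another library, against 99.8% to 100% between the other libraries, and that library gave only 4 T or NK cells. Treated 1 and treated 2 were more alike than any other pair: the log2 ratio of their summed counts had an SD of 0.43 over genes, against 1.04 to 1.61 for the other pairs. Pairs of libraries shared 0 to 24 barcodes, and no acinar barcode of one library was an acinar barcode of another. The labels do not say whether mice were littermates, and each p-value measures the spread between these 6 samples.

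Acinar cells were found in 3 of the 6 tumours. Vehicle 3 held 189 acinar cells, 1.83% of its kept cells. Treated 1 held 22 (0.56%) and treated 2 held 24 (0.464%). Of these, 25 cells of vehicle 3, 3 of treated 1 and 1 of treated 2 formed a sub-cluster of uncertain class, described further on. No acinar cells were found in vehicle 1, vehicle 2 or treated 3, where a count of 0 allows shares of up to 0.14%, 0.0317% and 0.0501%. The groups overlapped, since each contained a tumour with none. The mean share was 0.61% ± 1.06 (SD, n = 3) in vehicle and 0.342% ± 0.3 (SD, n = 3) in treated mice. The difference of -0.269 percentage points had p = 1.0 by exact permutation of the mice (2-sided, 20 assignments, smallest possible p 0.1). In a test of cell numbers by class with edgeR's quasi-likelihood fit, the acinar class had a log2 difference of -0.87 ± 2.31 (treated over vehicle, SE, adjusted p = 0.779), and 0% of 13 classes were called. Without vehicle 3, the one vehicle tumour with acinar cells, the log2 difference was 7.19 (adjusted p = 0.296).

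Where acinar cells were found, most RNA of the 10 genes lay in those few cells. The whole library of vehicle 3 held 379472 member UMIs, of which its acinar cells, 1.55% of the barcodes, held 79.1%. In treated 1 the acinar cells held 75.5% of 65022 member UMIs, and in treated 2 they held 71.9% of 86675. Other kept cells held 7.81%, 10.1% and 7.55% in these tumours, and barcodes left out of the analysis held the rest. The 3 libraries with no acinar cells held 222 (vehicle 1), 6193 (vehicle 2) and 4070 (treated 3) member UMIs. Between the lowest and highest library the member sum thus ranged from 9.65 to 2996.3 CPM over all barcodes, where CPM is the UMIs of a gene or list scaled to a common library total.

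**Figure D1:**
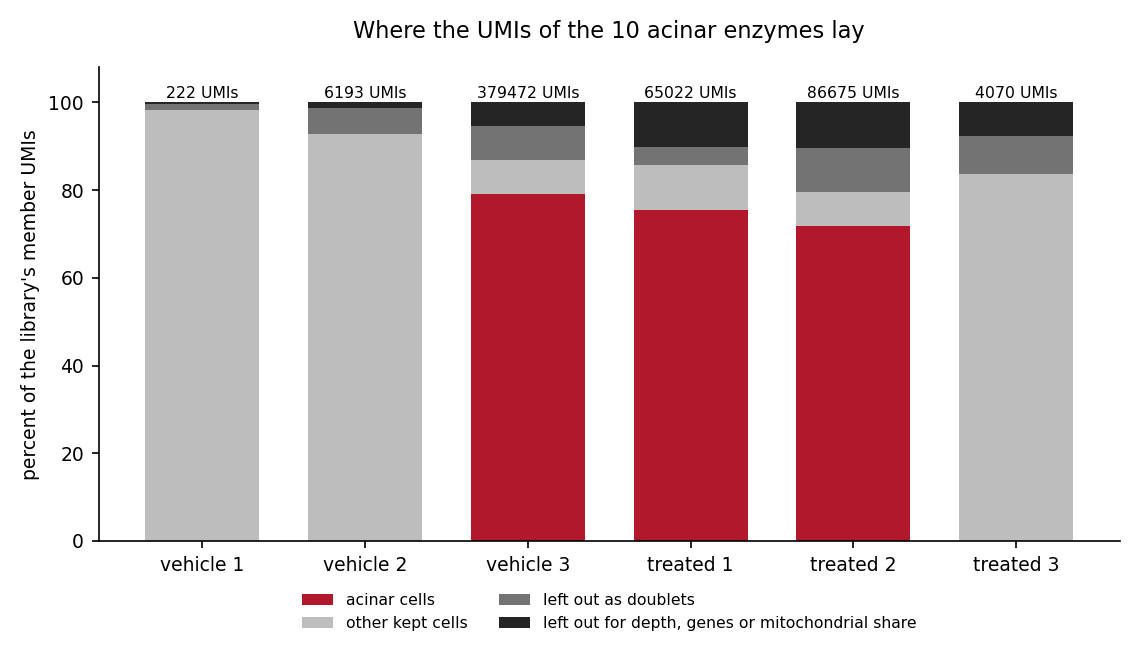
Share of each library's member UMIs (vertical axis, percent) held by acinar cells, other kept cells, barcodes left out as doublets, and barcodes left out for depth, genes or mitochondrial share, for 6 libraries (horizontal axis), with the number of member UMIs above each bar. Acinar cells held 71.9% to 79.1% in vehicle 3, treated 1 and treated 2 and none in the other 3 libraries.

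The class was described by genes that the 10 members do not include, although Pnliprp1, Clps, Rnase1, Zg16, Rbpjl and Bhlha15 were among the markers that named it. Of a list of other digestive enzymes and acinar products, the 5 most abundant in acinar cells were Pnliprp1, a lipase-related protein, Clps, the cofactor of pancreatic lipase, Rnase1, the trypsinogen gene 2210010C04Rik and the granule protein Zg16. Pnliprp1 stood at 13819.7 CPM in the acinar cells of vehicle 3, 9860.7 in treated 1 and 25928.1 in treated 2. Clps stood at 13803.7, 9745.3 and 16647.1 CPM in the same order. The acinar transcription factors were detected at far lower levels: Rbpjl at 137, 256 and 128 CPM, Ptf1a at 30, 88 and 77.9 CPM, and Nr5a2 at 52.3, 146 and 115 CPM. Bhlha15 (10.8, 22 and 4.58 CPM) and Gata4 (21.1, 44 and 22.9 CPM) rested on 1 to 33 UMIs per tumour. Of 10 listed genes of ductal metaplasia, Clu, Krt18 and Krt19 are given here and the others are not. In the same cells Clu stood at 10591.6, 16483.1 and 8149.5 CPM, Krt18 at 1368.4, 1682.4 and 1273.5 CPM and Krt19 at 325, 352 and 334 CPM. Reg proteins summed to 124265.5, 73272.4 and 88274.6 CPM there. In all other kept cells of the same tumours Krt19 stood at 471, 301 and 198 CPM, Krt18 at 1935.4, 1137.1 and 1005.9 CPM and Clu at 2085.6, 3733.0 and 2874.4 CPM. Krt19 and Krt18 were thus lower in acinar than in other cells of vehicle 3, but higher in acinar cells of treated 1 and treated 2. Clu was higher in acinar cells in all 3 tumours. The part of free RNA in these sums was not tested. Islet hormones gave 1 to 6 UMIs there.

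Within acinar cells the members took a large part of all RNA. They made up 19.1% of acinar UMIs in vehicle 3, 13.5% in treated 1 and 28.6% in treated 2. The median acinar cell gave them 18.2%, 14.3% and 28.6%, with a range over cells of 0% to 46.2%, 0.671% to 34.6% and 3.16% to 50.8%. The treated tumours thus lay on either side of the only vehicle tumour with acinar cells, and no test of acinar cells between groups was possible. The members' share also differed between acinar sub-clusters. In the richest (66, 6 and 17 cells of vehicle 3, treated 1 and treated 2) they held 33.4%, 28.1% and 39.4% of UMIs, and in another (75, 13 and 3 cells) 15%, 13.3% and 13.8%. A further 25 acinar cells of vehicle 3, with a median of 979 UMIs, held only 1.21%. Their sub-cluster had Gkn3 beside Ctrb1 and Prss2 among its leading genes. It was divided from a cluster whose other sub-clusters were named tumour or ductal epithelial. The lowest shares of vehicle 3 and treated 1, 0% and 0.671%, lay in it. Whether the cells of this sub-cluster are acinar was not tested.

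Outside the acinar class the members were detected in every tumour, at levels that differed by mouse far more than by treatment. The sum of the 10 in all other kept cells was 10.1 CPM in vehicle 1, 51.9 in vehicle 2 and 271 in vehicle 3, and 104, 92.6 and 37.5 CPM in treated 1 to 3. Vehicle 3 was highest and vehicle 1 lowest, so the treated mice fell inside the range of the vehicle mice. Means were 111 CPM ± 140 (SD, n = 3) in vehicle and 78.0 CPM ± 35.6 (SD, n = 3) in treated mice. The share of these cells with at least 1 member UMI was 7.42%, 16.9% and 80.1% in vehicle mice and 52.5%, 45.3% and 19.8% in treated mice, whose cells were deeper. After thinning to 1000 UMIs it was 0.98%, 3.7% and 36.2% in vehicle and 11.6%, 11.5% and 3.08% in treated mice, with treated 3 then below vehicle 2.

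This sum mixed 2 patterns, because Cela1 did not follow the other members. Without Cela1 the 9 other members gave 0.693, 4.99 and 266 CPM in vehicle mice and 77.5, 66.0 and 10.2 CPM in treated mice. The 3 tumours with acinar cells were the 3 highest, as they were for the sum of all 10. Cela1 made up 93.1% and 90.4% of the member UMIs outside acinar cells in vehicle 1 and vehicle 2, and 72.7% in treated 3. In vehicle 3 it made up 2.12%, and in treated 1 and treated 2 25.3% and 28.7%. In acinar cells its share was 0.576%, 0.47% and 0.924%.

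**Figure D2:**
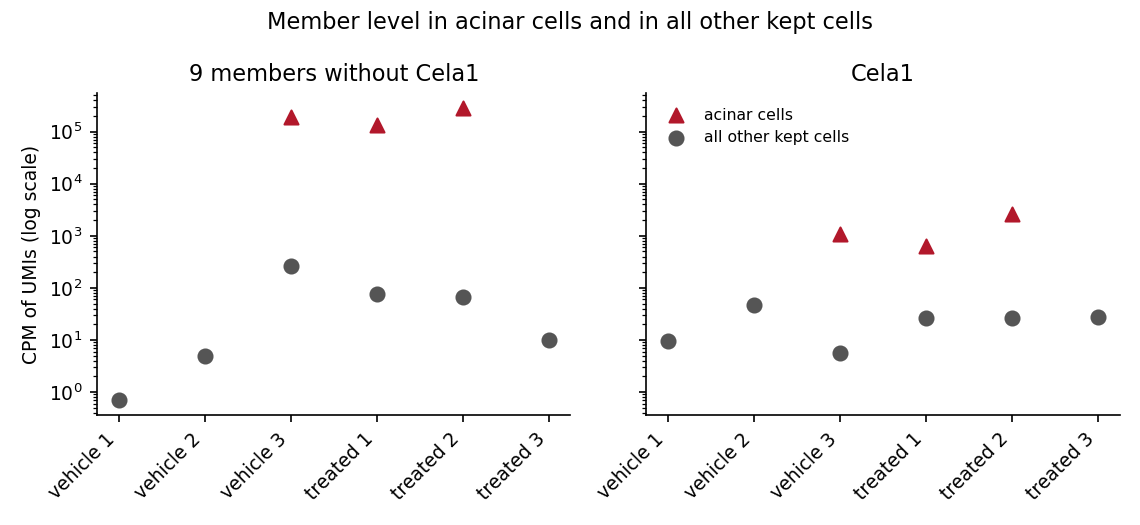
Level in CPM (vertical axis, log scale) of the 9 members without Cela1 (left) and of Cela1 (right) in each library, with triangles for acinar cells and circles for all other kept cells. Outside acinar cells the 9 members spanned 0.693 to 266 CPM, highest in the 3 libraries with acinar cells, while Cela1 stayed between 5.74 and 46.9 CPM and was lowest in vehicle 3.

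**Figure D3:**
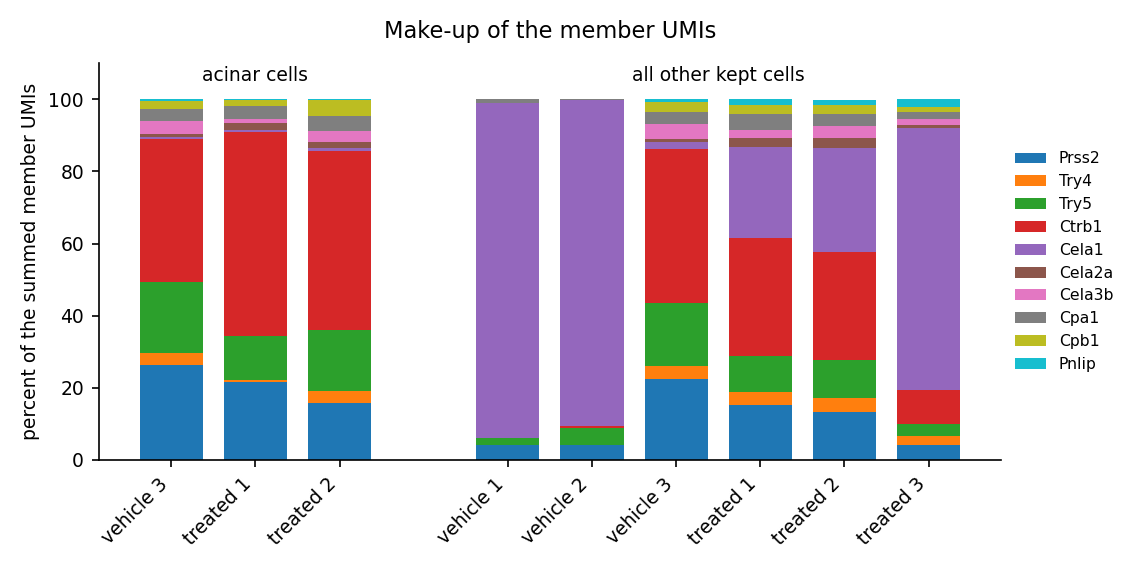
Share of each member in the summed UMIs of the 10 (vertical axis, percent), in acinar cells of 3 libraries (left) and in all other kept cells of 6 libraries (right). Ctrb1, Prss2 and Try5 filled most of each acinar bar, and Cela1 filled 93.1%, 90.4% and 72.7% of the bars of vehicle 1, vehicle 2 and treated 3 outside acinar cells.

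Trypsinogens are the precursors of trypsin, which activates the other zymogens. Prss2 reached 50173.1 CPM in the acinar cells of vehicle 3, 29109.4 in treated 1 and 44980.2 in treated 2. Outside acinar cells Prss2 stood at 0.416, 2.14 and 61.0 CPM in vehicle 1 to 3 and at 15.8, 12.3 and 1.59 CPM in treated 1 to 3. Vehicle mice held both the highest and the lowest value, and the groups overlapped. The log2 difference was -1.52 ± 1.63 (edgeR, SE, adjusted p = 0.73). Try5 stood at 37398.4, 16535.4 and 48003.6 CPM in acinar cells and Try4 at 6900.3, 965 and 9881.1 CPM, with treated 1 the lowest for both. Outside acinar cells Try5 gave 0.185, 2.53 and 47.8 CPM in vehicle and 10.2, 9.83 and 1.25 CPM in treated mice, with a log2 difference of -1.67 ± 1.63 (edgeR, SE, adjusted p = 0.703). Try4 was not detected there in vehicle 1 or vehicle 2, and stood at 9.5 CPM in vehicle 3 and at 3.88, 3.49 and 0.902 CPM in treated mice.

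In vehicle 2, which had no acinar cells, Prss2 appeared apart from Ctrb1. The neutrophils of vehicle 2 held 73 Prss2 UMIs and no Ctrb1 UMI, and 36 of the 37 Prss2-positive neutrophils had no other member. Prss2 stood at 90.0 CPM there, against 1.97 CPM in the tumour cells of that mouse. In the neutrophils of treated 1, Prss2 (103 UMIs) exceeded Ctrb1 (63 UMIs) by 1.63-fold, whereas in the acinar cells of that mouse Prss2 was 0.383 of Ctrb1. In the neutrophils of treated 3 Prss2 gave 23 UMIs and Ctrb1 15. In treated 2 Prss2 was 0.579 of Ctrb1 in neutrophils and 0.318 in acinar cells. Vehicle 3, where Prss2 was 0.66 of Ctrb1 in acinar cells, had 0.559 in neutrophils. Macrophages had 0.508 in treated 1 and 0.495 in treated 2, above the acinar cells, and 0.527 in vehicle 3, below them. A second departure was in the tumour cells of vehicle 2, with 274 Try5 and 149 Prss2 UMIs beside 18 of Ctrb1. No test was made of these ratios, and the neutrophil and tumour cells were singled out after their values were seen.

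Ctrb1, the precursor of chymotrypsin, was the most abundant member in acinar cells, at 75968.7 CPM in vehicle 3, 76090.1 in treated 1 and 141230.3 in treated 2. Each acinar cell held a mean of 630, 1258.1 and 1284.6 Ctrb1 UMIs. Outside acinar cells Ctrb1 had no UMI in vehicle 1, 23 UMIs (0.208 CPM) in vehicle 2 and 115 CPM in vehicle 3, against 33.9, 27.8 and 3.54 CPM in treated mice. Its presence in other cells thus went with acinar cells in the same library, apart from treated 3, which had 322 Ctrb1 UMIs and no acinar cell. In vehicle 3, 54.6% of non-acinar cells carried a Ctrb1 UMI, against 22.6%, 17.5% and 3.86% in treated 1 to 3 and 0.19% in vehicle 2. The log2 difference between treatments was -1.25 ± 2.16 (edgeR, SE, adjusted p = 0.841).

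The elastases, which cleave elastin and other proteins after small residues, split into 2 patterns. Cela3b stood at 6640.0, 1654.9 and 9125.2 CPM in the acinar cells of vehicle 3, treated 1 and treated 2, and Cela2a at 1617.9, 2677.5 and 4626.7 CPM. Outside acinar cells Cela3b was absent from vehicle 1, had 1 UMI in vehicle 2 and reached 11.3 CPM in vehicle 3, with 2.48, 3.01 and 0.572 CPM in treated mice. Cela2a was likewise at 0 UMIs in vehicle 1 and 1 UMI in vehicle 2, at 2.04 CPM in vehicle 3 and at 2.53, 2.62 and 0.286 CPM in treated mice. Both were near 0 in vehicle 1 and vehicle 2, as Ctrb1 was, but Cela2a was slightly higher in treated 1 and treated 2 than in vehicle 3. Cela1 stood at only 1103.0, 635 and 2638.6 CPM in acinar cells, and outside them at 9.38, 46.9 and 5.74 CPM in vehicle and 26.2, 26.6 and 27.2 CPM in treated mice. The 3 treated values of Cela1 lay close together and within the vehicle range (log2 difference 0.17 ± 0.67, edgeR, SE, adjusted p = 0.938). They did not rest on the same cells, since in treated 3 a group of 28 unnamed cells held 962 of the 2476 Cela1 UMIs. In treated 1, Nnat and Cdkn2a cells held 502 of 1667, tumour or ductal epithelial cells 766 and macrophages 305. In treated 2 these classes held 615, 727 and 418 of 1881.

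In vehicle 1 and vehicle 2 most Cela1 UMIs lay in tumour or ductal epithelial cells (147 of 203 and 4917 of 5200), whereas in treated 3 these cells held 776 of 2476, unnamed cells 1104 and fibroblasts 320. In tumour or ductal epithelial cells it stood at 10.2, 65.1 and 4.08 CPM in vehicle and 31.2, 27.4 and 22.7 CPM in treated mice, and 12.9%, 29.6% and 5.16% of vehicle and 43.6%, 38.1% and 37.6% of treated tumour cells had a Cela1 UMI. These shares were not thinned, and median depth was 11907, 14171 and 24698 UMIs in vehicle and 25241, 23987 and 45667 in treated tumour cells; the CPM of the groups overlapped. Of the 1131 tumour cells of vehicle 2 with Cela1, 1097 (97.0%) had none of the other 9 members, as had 246 of 262 (93.9%) in treated 3 but 20 of 135 (14.8%) in vehicle 3. In vehicle 2 there were 273 Cela1 UMIs for each Ctrb1 UMI in these cells, against 0.0145 in the acinar cells of vehicle 3. The log2 difference in tumour cells between treatments was -0.18 ± 0.87 (edgeR, SE, adjusted p = 0.945).

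Within the tumour cells of vehicle 2, Cela1 was uneven between sub-clusters. The 3 highest had Ly6d and Agr2 among their leading genes, and 2 of them also Tff1, Gkn1 and Gkn2, known as secreted products of gastric surface mucous cells. They held Cela1 at 228, 219 and 211 CPM, in 84.2%, 87.8% and 86.0% of their 158, 362 and 200 cells. The 7 sub-clusters at 100 CPM or more held 81.7% of the Cela1 UMIs and 30% of the cells. A sub-cluster led by Gkn3 and Tff2 had Cela1 at 162 CPM in vehicle 3, 147 in treated 2 and 80.0 in treated 1. The highest level of any non-acinar sub-cluster was in 28 unnamed cells of treated 3 led by Spink4, Muc2 and Mptx1, of which Muc2 is the main intestinal mucin, where Cela1 reached 1123.9 CPM in 92.9% of cells. The cell with the most Cela1 in that library held 123 UMIs of it and none of the other 9 members. These sub-clusters were chosen for their Cela1 level, and no test was made of them.

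**Figure D4:**
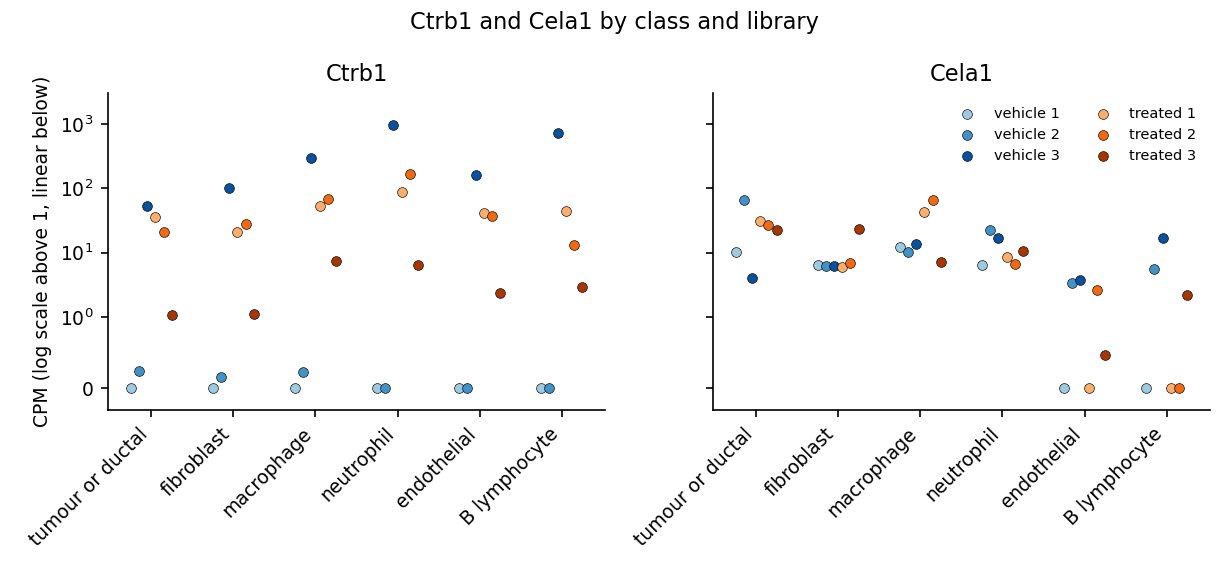
Level in CPM (vertical axis, log scale above 1 and linear below) of Ctrb1 (left) and Cela1 (right) in 6 non-acinar classes (horizontal axis), 1 point per library. Ctrb1 was highest in vehicle 3 in each class shown, from 53.3 CPM in tumour cells to 957 in neutrophils, whereas Cela1 was highest in vehicle 2 in tumour cells (65.1 CPM) and in treated 2 in macrophages (64.9 CPM).

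In macrophages or monocytes Cela1 stood at 12.3, 10.3 and 13.7 CPM in vehicle mice and at 43.5, 64.9 and 7.07 CPM in treated mice. Treated 1 and treated 2 were above all vehicle mice and treated 3 below them, so the groups overlapped. Among the members in the 6 classes tested this had the smallest unadjusted p, 0.0532, with a log2 difference of 1.71 ± 0.74 (edgeR, SE, adjusted p = 0.498). The 2 high libraries are also the pair with the most similar counts. Within the class Cela1 was uneven between sub-clusters. A sub-cluster of 91 cells held 32 from treated 1 and 58 from treated 2, with Cela1 at 119 and 146 CPM. A sub-cluster of 381 cells held 139 and 235 from these libraries, with Cela1 at 112 and 123 CPM. Sub-clusters of 37 and 21 macrophages in treated 2 stood lower, at 48.3 and 42.0 CPM. The class thus differed in make-up between libraries, and its level at equal make-up was not tested. In fibroblasts Cela1 stood at 6.39, 6.29 and 6.19 CPM in vehicle mice and at 5.96, 7.0 and 23.6 CPM in treated mice, where treated 3 alone was high.

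The procarboxypeptidases remove single residues from the ends of peptides. Cpa1 stood at 6437.1 CPM in the acinar cells of vehicle 3, 4832.8 in treated 1 and 11759.3 in treated 2, and Cpb1 at 4493.2, 2391.6 and 12203.6 CPM. Outside acinar cells Cpa1 gave 0.0924, 0.0812 and 9.04 CPM in vehicle and 4.46, 3.31 and 0.726 CPM in treated mice, with a log2 difference of -0.56 ± 1.65 (edgeR, SE, adjusted p = 0.916). Cpb1 gave no UMI in vehicle 1, 2 UMIs in vehicle 2 and 7.8 CPM in vehicle 3, and 2.59, 2.22 and 0.594 CPM in treated mice. Pnlip, which splits dietary triglycerides, was the least abundant member in the acinar cells of vehicle 3 (685 CPM), with 126 and 1131.5 CPM in treated 1 and treated 2. Outside acinar cells Pnlip was not detected in vehicle 1 or vehicle 2 and stood at 1.75 CPM in vehicle 3 and at 1.62, 1.37 and 0.77 CPM in treated mice (log2 difference 0.63 ± 1.7, edgeR, SE, adjusted p = 0.907). As for Ctrb1, vehicle 3 held the highest value of all 3 genes and the other vehicle mice the lowest.

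In vehicle 3 the 9 members other than Cela1 were spread over all cell classes at similar numbers per cell. Classes of at least 20 cells held between 1.71 UMIs per cell (pericytes or smooth muscle) and 3.83 (plasmacytoid dendritic cells), a 2.24-fold range, and 66.7% to 84.1% of their cells had at least 1. The same counts expressed as CPM ranged 19.1-fold, from 119 in tumour cells to 2277.9 in neutrophils, because median depth ran from 894 UMIs in neutrophils to 24698 in tumour cells. After each cell was thinned to 1000 UMIs, the share of cells with a member ran from 14.4% in tumour cells to 68.4% in B lymphocytes. The makeup of the sum was close to that of acinar cells: in classes with enough UMIs to compare, 3.94% (fibroblasts) to 10.1% (endothelial cells) of the 9-member sum lay with other members than in acinar cells. B lymphocytes, which do not make these enzymes, had 2.1 UMIs per cell, near the 2.6 of macrophages and 3.77 of tumour cells. The acinar class of the same mouse had 1578.4 such UMIs per cell.

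**Figure D5:**
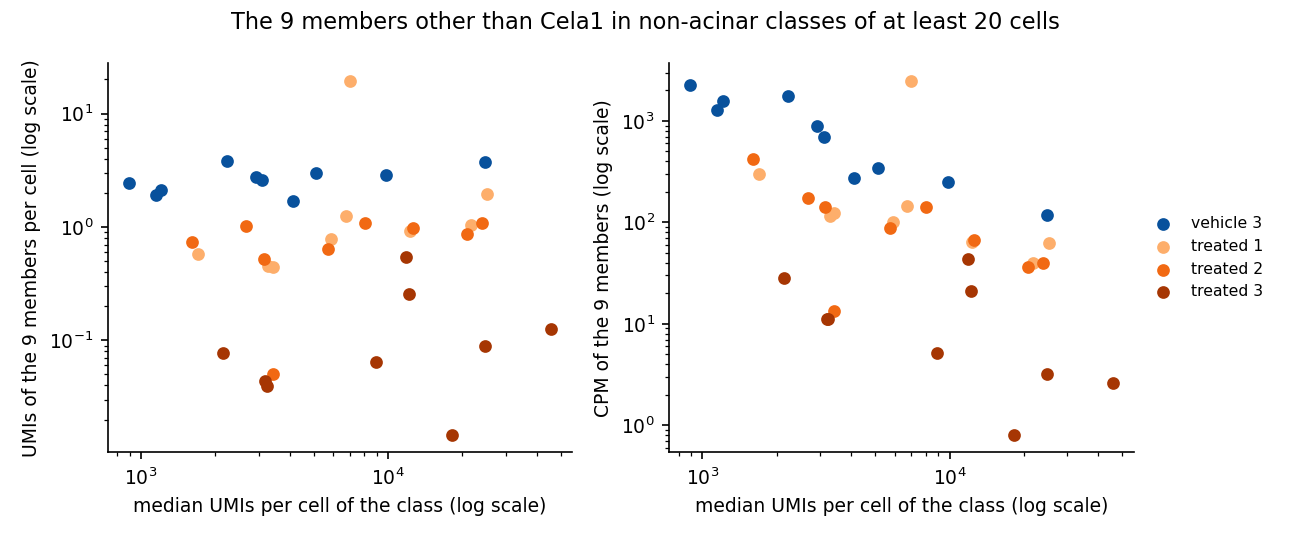
UMIs per cell (left) and CPM (right) of the 9 members without Cela1 (vertical axes, log scale) against the median UMIs per cell of the class (horizontal axis, log scale), 1 point per non-acinar class of at least 20 cells with a UMI, for 4 libraries. In vehicle 3 UMIs per cell stayed between 1.71 and 3.83 while CPM fell from 2277.9 to 119 as depth rose; the high point of treated 1 is the pericyte class, where 1 cell held 97.4% of the UMIs of the 10 members.

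The treated tumours with acinar cells showed lower and less even counts. In treated 1 most classes held 0.44 to 1.94 UMIs of the 9 members per cell. The pericytes or smooth muscle cells were the exception at 19.5, and 1 of those 22 cells held 97.4% of the class's member UMIs, so the class stood at 2500.1 CPM of the 10 members with that cell and 71.5 without it. In treated 2 the classes held 0.05 (B lymphocytes, 20 cells) to 1.09 UMIs per cell. The makeup of the 9-member sum differed from that of acinar cells by 5.66% (tumour cells) to 32.5% (neutrophils) in treated 1 and by 7.52% (tumour cells) to 18.5% (fibroblasts) in treated 2. Only 22 and 24 acinar cells define the acinar makeup in these mice. In the tumour cells of treated 1, 1 cell held 692 of the 2304 UMIs of the 10 members. The level and makeup of that class thus rest in large part on 1 cell, and were not taken without it.

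Treated 3 held no acinar cell, yet 931 UMIs of the 9 members. Its macrophages or monocytes held 653 of them (70.1%) and were 42.4% of its cells. Macrophages gave 0.258 UMIs per cell (21.3 CPM), against 0.0437 (11.2 CPM) in T or NK lymphocytes and 0.126 (2.58 CPM) in tumour cells. Median depth differs between these classes, and after thinning to 1000 UMIs 2.36% of macrophages, 0.954% of T or NK lymphocytes and 0.321% of tumour cells had a UMI. Neutrophils (2.44%, from 65 UMIs) and pericytes or smooth muscle cells (4.05%, from 18 UMIs) were not below macrophages by this measure. All of these shares are low, and they come from 1 mouse. In vehicle 1 and vehicle 2, B lymphocytes had no UMI of the 9 members in 46 and 794 cells, and macrophages had 0 and 10 UMIs in 469 and 1644 cells.

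A small number of non-acinar cells carried far more. In vehicle 3, 130 kept non-acinar cells gave over 1% of their UMIs to the 10 members, 80 of them neutrophils, whose level fell from 2294.7 to 1660.3 CPM without those cells. Without all 130 the level outside acinar cells was 232 CPM in place of 271, and with doublets kept it was 355. Sub-clusters of 26 neutrophils and 57 macrophages, the first all from vehicle 3 and the second with 54 cells from it, had Ctrb1, Prss2 and Try5 among their 10 leading genes beside S100a9 or C1qa. Whether these cells are doublets that the caller missed was not tested.

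Barcodes that were left out also held acinar enzyme RNA. In vehicle 3, 57 barcodes left out for depth, genes or mitochondrial share gave at least 20% of their UMIs to the members, and 54 of them had under 250 genes, at a median of 788 UMIs. Treated 1 had 13 such barcodes and treated 2 had 23, and the other 3 libraries had none. Counted with the acinar cells they would raise the numbers from 189 to 246, from 22 to 35 and from 24 to 47. The shares would then be 2.37%, 0.889% and 0.905%, and the exact permutation p would stay at 1.0.

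No member was called between treated and vehicle mice, and neither was any gene in most of these comparisons, so the count says nothing particular about the members. In the sum over all kept cells, where fewer acinar cells and less enzyme RNA per cell cannot be told apart, edgeR tested all 10 and called none, against 0% of 17494 genes, and 0 members had an unadjusted p under 0.05, against 10.8% of genes. DESeq2 called no member in this or any other comparison in which it gave an adjusted p (it gave none in endothelial cells), and had 1 at an unadjusted p under 0.05, Cela1 in macrophages (adjusted p = 0.178). The members' median log2 difference was -0.93, with 9 below 0, and the median of all genes was -0.02. No member had groups that did not overlap, against 23% of genes. In kept cells other than acinar, 0 of 10 were called (0% of 17469 genes), with a median of -0.81 and 7 below 0, 0 members at an unadjusted p under 0.05 (10.9% of genes) and 0 whose groups did not overlap (23% of genes). Without vehicle 3 these medians were 10.1 and 6.89, with 9 and 7 members at an unadjusted p under 0.05 and still 0 called. Those fitted differences are set against groups near 0 UMIs and give no size of change. Leaving out 1 vehicle tumour thus turned the sign of both medians.

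By class the result was the same. Among the 10 members edgeR tested 10 in tumour cells (median log2 difference -0.74), 10 in macrophages (-0.83), 7 in neutrophils (-2.01), 6 in fibroblasts (-0.95), 4 in endothelial cells (-1.47) and 0 in B lymphocytes, after its filter on low counts. None was called, against 0% of genes in tumour cells, macrophages, neutrophils and fibroblasts and 0.818% in endothelial cells (0.0986% higher and 0.719% lower in treated mice). None had an unadjusted p under 0.05, against 11.6% of genes in tumour cells, 10.1% in macrophages, 5.4% in neutrophils, 16.4% in fibroblasts, 19.8% in endothelial cells and 2.91% in B lymphocytes. The medians of all genes in these classes lay between -0.07 and 0.03. No member's groups were apart, against 24% of genes in tumour cells, 16.7% in macrophages, 8.82% in neutrophils, 26.2% in fibroblasts and 27.8% in endothelial cells. Of the other digestive enzymes and acinar products, 20 were tested over all kept cells and 19 outside acinar cells, with 0 called by edgeR or DESeq2 in either; their medians were -0.78 and -0.03.

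Genes whose level most resembled that of the 10-member sum were ranked over 60 sums of at least 20 cells per class and mouse, by Pearson's r of log2(CPM + 10) among 17842 genes. Sums of 1 mouse share a library and its free RNA, so r is a description. The highest was Reg2 (r = 0.960), followed by Pnliprp1 (0.950), Clps (0.949), Reg3a (0.911), 2210010C04Rik (0.907), Rnase1 (0.900), Reg1 (0.890), Cel (0.879), Reg3b (0.871) and Sycn (0.869). Over the 57 sums without the acinar class, Clps had the highest value of these 10 (0.945) and Reg3b fell to 0.695. Reg1 and Reg3b had a second source in vehicle 2, where 95.7% and 97.5% of their UMIs lay in tumour cells.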

How the data were processed

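Whole tumours of 6 KPC mice were profiled by droplet single-cell RNA sequencing, 1 library per mouse. A further allele of the genotype is not reported here. The authors deposited raw UMI counts per gene and barcode, made with Cell Ranger 5.0.1 on mm10 per the submitters' processing notes. No source used here names the annotation release. Barcodes with under 500 UMIs, under 250 genes or over 20% mitochondrial UMIs were left out (4891), as were the highest doublet scores of scanpy's scrublet, at 0.8% per 1000 barcodes (2910). Kept cells were clustered with scanpy 1.11.5 (2000 variable genes, 30 components, 15 neighbours, resolution 1), and clusters were divided again. Each sub-cluster was named from 17 marker sets, where 3 or more markers reached 50 CPM and stood 4-fold or more above the median sub-cluster. Names were removed where leading genes were of another type, in some sub-clusters by hand. The Nnat and Cdkn2a group was set by hand, from sub-clusters first scored as tumour or ductal epithelial. Levels are CPM of summed counts. Shares of cells were also taken after thinning each cell to 1000 UMIs, which leaves out shallower cells. Limits for a count of 0 use 3 counts, and cover counting error only.

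Counts were summed per mouse over all kept cells, over kept cells other than acinar and within 6 classes, with at least 20 cells per sum. Treated and vehicle mice were compared with edgeR 4.0.16 (quasi-likelihood test, TMM scaling, filter on low counts), with Benjamini-Hochberg adjustment over all genes of a comparison and a threshold of 0.05. DESeq2 1.42.0 was an alternative. The share of acinar cells was compared with a two-sided exact permutation test. The procedure was tested on simulated data. All 10 members were named. Other named genes were the 5 most abundant of the other acinar products in acinar cells, the listed acinar factors and some of the listed ductal genes. The 10 genes most like the member sum (at least 50 UMIs) were also named. Further genes and sub-clusters were named after their values were seen. The members and the lists were chosen with earlier results of these data known. The 24 other acinar products included 23 found in the files, all but Amy2b. Gene coordinates came from GENCODE M21 and promoter sequences from RefSeq (GRCm38.p6).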

Additional observations from a re-analysis of the deposited data

Results flagged for a closer look

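Barcodes left out for depth, genes or mitochondrial share entered no main comparison, and in 4 libraries the 10 members stood higher in them, with more than 3 UMIs, than in the kept non-acinar cells of the same library. Their level there was 19912.6 CPM in vehicle 3, 2530.6 CPM in treated 1, 6245.6 CPM in treated 2 and 68.9 CPM in treated 3. The first 3 are the libraries with acinar cells. In vehicle 2 the left-out barcodes held 79 member UMIs (33.8 CPM), below its kept cells, and in vehicle 1 they held 1.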

How the results depend on the processing

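No member was called under any alternative run. Over the alternatives, 277 values were counted as unchanged and 36 changed sign. For differences, unchanged meant the same sign and, where an adjusted p was used, the same side of the threshold. For levels and shares of UMIs it meant a shift below the SD between mice of the group, which was 140 CPM for vehicle levels. Leaving out Cela1 thus counted as unchanged, although vehicle 1 fell from 10.1 to 0.693 CPM and vehicle 2 from 51.9 to 4.99 CPM. The labels do not say that equal numbers pair mice. Same-numbered mice had correlations of -0.11, -0.04 and -0.09 over all kept cells. In neutrophils they had 0.08, 0.24 and 0.14, against -0.22 to 0.06 for mice of different numbers. Whether the numbers pair the mice is therefore not settled. With the replicate number as a block the acinar cell number had a log2 difference of 3.42, and the members' medians were 6.13 (all kept cells), 4.11 (other than acinar), 1.0 (fibroblasts), 1.61 (macrophages), 0.52 (neutrophils) and 3.04 (tumour cells), but still below 0 in endothelial cells (-0.42). Under the block, outside acinar cells, Prss2 was 1.63, Try4 5.09, Try5 1.28, Ctrb1 5.4, Cela3b 4.36, Cpa1 3.17 and Cpb1 4.01, and Cela1 in tumour cells was 0.7. Scaling by library total only gave Cela1 in tumour cells 0.03. The cause was not tested.

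Leaving out each mouse in turn gave an acinar share difference of -0.574 to 0.342 points and a number difference of -1.46 to 7.19. The members' medians ran from -1.84 to 10.1 (all kept cells), -1.46 to 6.89 (other than acinar), -2.22 to 5.43 (endothelial cells), -2.16 to 5.8 (fibroblasts), -1.44 to 7.35 (macrophages), -2.81 to 6.15 (neutrophils) and -1.32 to 5.95 (tumour cells). Outside acinar cells Prss2 ran from -2.14 to 2.72, Try4 -1.3 to 10.56, Try5 -2.26 to 2.17, Ctrb1 -1.91 to 7.1, Cela1 -0.25 to 1.42, Cela3b -2.0 to 7.67, Cpa1 -1.21 to 4.81, Cpb1 -1.63 to 6.68 and Pnlip -0.04 to 9.42. Cela1 in tumour cells ran from -0.68 to 1.62, and in macrophages from 1.12 to 2.23. Fitted values against groups near 0 UMIs give no size of change. Added after seeing the data: with left-out barcodes rich in members counted as acinar, the share difference was -0.192 points. With 3 mice a group, and acinar cells in 3 mice, differences between treatments could not be resolved.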

Other observations

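RNA with another single source gave other orders of the libraries. Unlike the member sums, these sums did not leave out the cells that make the RNA, so they do not measure free RNA alone. They included 165 unnamed cells that were first scored as islet endocrine. Islet hormones outside acinar cells stood at 1.11, 3.22 and 10.1 CPM in vehicle 1 to 3 and at 7.16, 167 and 1.39 CPM in treated 1 to 3. Haemoglobins stood at 12394.4, 0.18 and 35.1 CPM in vehicle and at 1.07, 415 and 2004.5 CPM in treated mice. The sums included 26 erythroid cells in vehicle 1, 4 in treated 2 and 19 in treated 3. In treated 3 some genes listed as acinar products lay outside any acinar class: 91.5% of the 4380 UMIs of Zg16 and 91.0% of the 2395 UMIs of Klk1 lay in unnamed cells. A sub-cluster of 14 such cells, with Tff3, Clca1 and the intestinal mucin Muc2 among its leading genes, held 85.0% of the Zg16 UMIs. The 28 cells led by Spink4, Muc2 and Mptx1 held 83.0% of the Klk1 UMIs.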
